A study of Mus musculus with 12 samples.

Results

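RNA of the corneal endothelium was sequenced from old mice homozygous for Col8a2 Q455K and from old wild-type mice. The comparison rests on the 6 late libraries among the 12 of the series, chosen by their stage label: 3 of Col8a2 Q455K mutants and 3 of wild types, all from animals of 8 months or more and all of batch 2. The other 6 libraries come from mutants and wild types of at most 2 months and form batch 1. They enter only where an early difference is set beside the late one. The design text calls the 3 libraries of a group biological replicates, and the labels do not say how many animals or eyes went into each, so p-values measure the spread between these libraries. The authors' own late comparison names its control columns after C57, and no other detail of strain is given. The labels give no treatment for any group and name no promoter or Cre that would limit the allele to 1 tissue.

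The corneal endothelium is the single layer of cells on the inner face of the cornea. It keeps the cornea clear by moving ions and bicarbonate, and water with them, out of the stroma, and in adults it hardly divides. It rests on Descemet membrane, a basement membrane whose lattice is built of collagen VIII, made of chains encoded by Col8a1 and Col8a2. Substitutions in COL8A2, Q455K among them, cause an early form of Fuchs endothelial corneal dystrophy, in which the membrane thickens with excrescences called guttae and endothelial cells are lost. A secreted collagen that folds poorly loads the endoplasmic reticulum, where the unfolded protein response and the integrated stress response adjust folding, degradation and translation. The study names as its aim the transcript changes behind the early and late phases of this disease.

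Levels are given as CPM, counts scaled to library size, after TMM scaling of the libraries, for libraries 1, 2 and 3 of each group in that order. Col8a2 stood at 799, 1079 and 822 CPM in the mutants and at 1214, 853 and 783 CPM in the wild types. The ranges overlapped, and the log2 fold change of mutant over wild type was -0.08 ± 0.31 (SE, adjusted p = 0.9), and 0.26 without wild type 1 (adjusted p = 0.35). The allele changes 1 residue, so the transcript level checks nothing about the genotype labels. Adjusted p-values throughout come from edgeR's quasi-likelihood F test of these 6 libraries with Benjamini-Hochberg adjustment over all genes tested, and a gene is said to have risen or fallen where this is below 0.05.

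The 6 libraries held 27723176 to 29972262 counts, and 16257 of 32761 genes had enough counts to be tested. Late wild type 1 stood apart from late wild types 2 and 3. The interquartile range of the gene-wise log2 ratio was 0.89 between wild types 2 and 3 and 1.60 to 1.61 between wild type 1 and either of them, whereas it was 1.01 to 1.39 between wild type 1 and the mutants. Among 5150 genes of at least 20 CPM, wild type 1 differed more than 2-fold from the mean of wild types 2 and 3 in 26.2%, against 3.42% between wild types 2 and 3. On the first principal component (39.8% of the variance) the mutants lay from -65.3 to -59.5, wild type 1 at 18.9 and wild types 2 and 3 at 90.9 and 78.9. On the second (19.4%) wild types 1, 2 and 3 lay at 55.5, 49.0 and -85.2, and on the third (18.7%) at 82.9, -63.0 and 19.6. Wild types 2 and 3 were thus not a close pair on those components. Wild type 1 also held more genes with a count (20902) than wild types 2 and 3 (19931 and 19317), and the mutants held 21544 to 21975. Every library held Xist (79 to 170 CPM) and transcripts of the Y chromosome (32.6 to 62.2 CPM summed over 4 genes). The main counts are given with and without wild type 1.

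**Figure D1:**
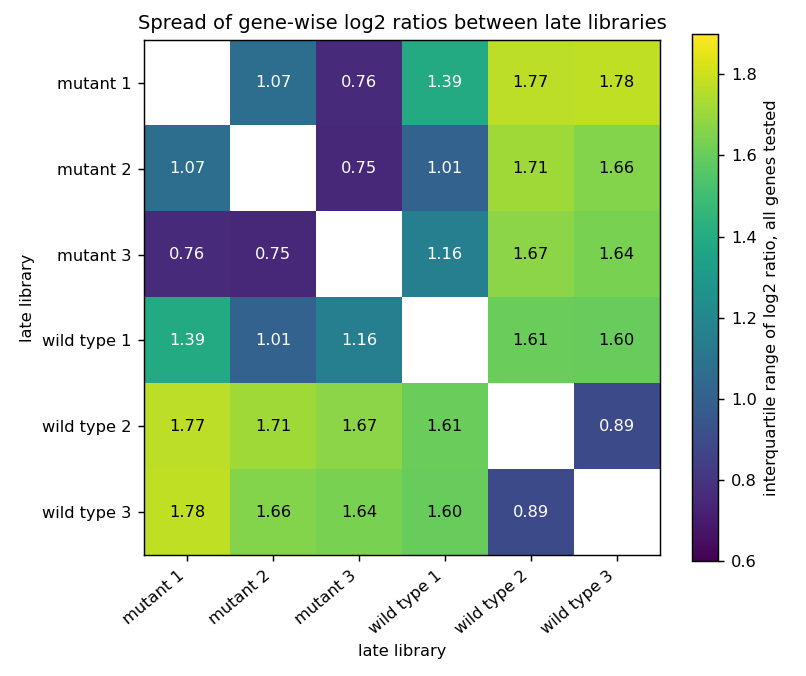
Interquartile range of the gene-wise log2 ratio (log2 units, colour and printed value) for each pair of the 6 late libraries, over all genes tested. By this measure wild type 1 is nearer to the mutants (1.01 to 1.39) than to wild types 2 and 3 (1.60 to 1.61), whereas Pearson's r of log CPM over genes is alike for both (0.900 to 0.912 and 0.903 to 0.905).

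With all 6 libraries 489 genes (3.01% of those tested) passed the threshold, 285 of them higher (1.75%) and 204 lower (1.25%) in the mutants. Each of the 489 differed at least 2-fold, and 479 showed no overlap between genotypes, against 27% of all genes tested. Without wild type 1, 3644 of 17393 genes (21%) passed, 1870 higher (10.8%) and 1774 lower (10.2%). Counts of list members below are to be read against these shares of all genes. A larger count without wild type 1 thus partly follows the larger number of calls in that fit. Of the 489 genes 486 passed in the same direction, and the 3 that did not were Cdk6, Kcnc2 and Myo18b, named here after their values were seen. Wild type 1 lay nearer to the mutant mean than to the mean of wild types 2 and 3 in 1038 of the 1870 higher genes (55.5%) and in 1462 of the 1774 lower genes (82.4%). These genes were picked by a fit without wild type 1, so wild types 2 and 3 lay far from the mutants by selection. The same shares with wild type 2 or wild type 3 held out were not computed, so nothing is concluded from them. The median log2 fold change of all genes tested was 0.003 with 6 libraries and 0.25 without wild type 1, so medians from the 2 fits are read against different levels. Single libraries moved the count in the other direction as well: it was 142 without mutant 1, 405 without mutant 2 and 263 without mutant 3. It was 173 without wild type 2 and 200 without wild type 3. Of the calls 58.3% were of higher genes. The share was 65.8% to 78.2% without any 1 library other than wild type 1, 51.3% without wild type 1, 51.1% of the 1417 calls of DESeq2 and 37.8% of the 3515 calls of limma-voom with sample weights, which gave wild type 1 a weight of 0.254. A total of 91 genes, 77 higher and 14 lower, passed under each of the 14 alternative settings tried, and in what follows "under every setting" means these 14. Genes of a list that are named only because they passed are named in full where few, some of them beyond the rule for named genes and after their values were seen. Where a call is said to be missed without 1 library, the adjusted p values are those of the fits without each library named, and no called gene changed sign in any of them.

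**Figure D2:**
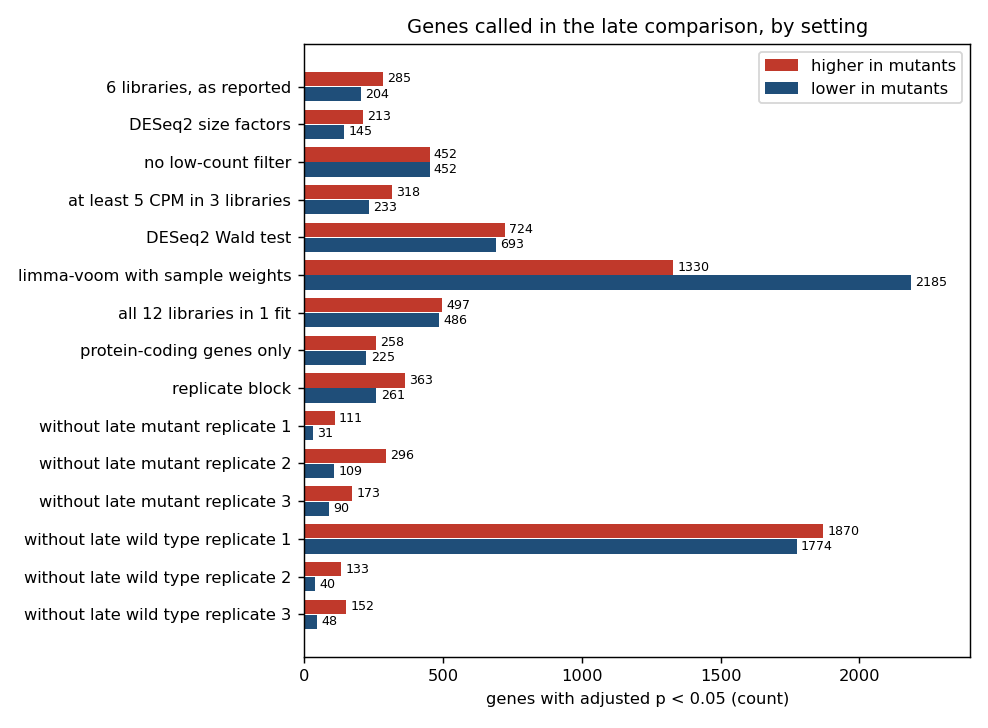
Number of genes with adjusted p below 0.05 that were higher (red) or lower (blue) in late mutants, for the 6-library fit and each of 14 alternative settings. The count runs from 142 without mutant 1 to 3644 without wild type 1.

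Genes of macrophages and related myeloid cells rose together in the old mutants. Of 23 tested genes of this list 14 rose and none fell, with a median log2 fold change of 2.83, and 19 rose without wild type 1 (median 2.97). The count was 11 to 13 without any other single library. Lyz2, the lysozyme of macrophages, was at 244, 242 and 281 CPM in the mutants and 24.2, 38.1 and 32.1 CPM in the wild types. Each mutant library lay above each wild type with wild type 1 the lowest, an 8.13-fold difference (adjusted p = 5.8e-05) with a log2 fold change of 3.02, and of 2.99 without wild type 1. Ctss, a lysosomal protease that trims the class II invariant chain, was at 60.05, 63.8 and 76.3 against 5.38, 11.03 and 7.17 CPM, a log2 fold change of 3.09 ± 0.35 (adjusted p = 9.7e-05). Fcer1g and Tyrobp, adaptors that pass on signals of activating receptors, were at 21.4, 24.8 and 27.5 against 1.62, 1.56 and 3.47 CPM and at 20.9, 22.7 and 25.7 against 3.30, 2.99 and 3.04 CPM. Csf1r, the receptor that keeps macrophages alive, was at 8.66, 12.2 and 12.99 against 1.121, 1.44 and 2.21 CPM. Adgre1 (F4/80), Cd14, Trem2 and Cx3cr1 also rose, each below 2 CPM in every wild type. Adgre1 missed the threshold without mutant 1, mutant 3 or wild type 2 (adjusted p from 0.054 to 0.089). Cd14 and Trem2 missed the threshold without any 1 library other than wild type 1 (Cd14, adjusted p from 0.066 to 0.24, and Trem2, adjusted p from 0.095 to 0.17). The summed level of the 24 measured myeloid genes was 456 to 561 CPM in the mutants and 49.3 to 79.8 CPM in the wild types. Fewer or more cells of a type and less or more RNA per cell cannot be told apart in bulk tissue, here and in every list below. Neutrophil genes were at 7.24 to 9.72 CPM summed against 0.355 to 5.04 CPM, with Ly6g at 0 in all 6 libraries. All 5 tested neutrophil genes lay above 0 (median log2 fold change 3.30), though none passed with 6 libraries. In 4 of them every mutant lay above every wild type, against 15.5% of all genes tested. Without wild type 1, 2 of 6 rose (median 4.38). Lymphocyte genes were at 5.92 to 7.17 against 3.50 to 7.26 CPM, and none of the 4 that could be tested passed.

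Some complement genes and class II antigen presentation genes rose as well. C1q, the recognition unit of the classical pathway, is built from the products of C1qa, C1qb and C1qc. C1qc was at 29.7, 29.1 and 39.7 CPM in the mutants and 2.08, 2.79 and 3.35 CPM in the wild types, 11.99-fold higher (adjusted p = 3.3e-05). C1qa was at 18.5, 17.2 and 23.1 against 1.22, 1.31 and 2.01 CPM and C1qb at 34.9, 36.3 and 45.4 against 4.02, 8.53 and 7.37 CPM. The lowest mutant value of each subunit was more than 4 times the highest wild-type value. C4b, the next component of the cascade, was at 28.3, 43.3 and 34.4 against 8.11, 9.18 and 12.8 CPM (log2 fold change 1.81 ± 0.33, adjusted p = 0.0055). C2 and C5ar1, the receptor of the C5a fragment, completed the 6 of 19 complement genes that rose, with none lower, and the median log2 fold change was 1.06. The count was 10 of 20 without wild type 1 (median 1.38) and 4 to 6 genes without any other single library. C2 and C5ar1 missed the threshold without mutant 1, mutant 3, wild type 2 or wild type 3 (C2, adjusted p from 0.061 to 0.089, and C5ar1, adjusted p from 0.081 to 0.16). C3, Cfb and the regulators Cd55 and Cd59a did not pass with or without wild type 1. The class II chains H2-Aa, H2-Ab1 and H2-Eb1 and their invariant chain Cd74 all rose, and they were the 4 of 10 tested genes of the class II list to do so. Cd74 was at 74.9, 97.4 and 83.5 against 14.2, 22.9 and 26.4 CPM and H2-Aa at 18.7, 31.6 and 23.1 against 3.40, 5.04 and 5.87 CPM. All 3 C1q genes, C4b and these 4 class II genes were among the 91 that passed under every setting.

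Of 22 tested chemokine and adhesion genes, which recruit and hold leukocytes, 6 rose and none fell (median log2 fold change 2.51), against 9 without wild type 1 and 4 to 6 without any other single library. Icam1, the adhesion molecule that leukocyte integrins bind, was at 129.7, 94.5 and 122 CPM in the mutants and 34.2, 24.5 and 22.9 CPM in the wild types (log2 fold change 2.08 ± 0.32, adjusted p = 0.0015). Ccl2, the chemokine that draws monocytes, was at 8.24, 8.52 and 13.5 against 0.560, 1.39 and 0.867 CPM. Ccl9 had 62 to 79 counts in each mutant library and none in any wild type, so with a floor of 3 counts per library (0.113 CPM) it was at least 20.2-fold higher. With Ccl7, Cx3cr1 and Vcam1, an adhesion molecule, these were the 6 that rose. Ccl7 missed the threshold without mutant 1, mutant 3 or wild type 2 (adjusted p from 0.077 to 0.2), and Vcam1 missed the threshold without mutant 1, wild type 2 or wild type 3 (adjusted p from 0.067 to 0.17). Tnfrsf12a, the receptor of the cytokine TWEAK, was at 22.6, 18.5 and 18.4 against 2.41, 2.21 and 1.38 CPM, and Osmr, a receptor chain for oncostatin M, at 4.92, 5.71 and 6.22 against 1.32, 1.31 and 1.06 CPM. Osmr missed the threshold without any 1 library other than wild type 1 (adjusted p from 0.068 to 0.14). Without wild type 1, 2 of 30 interferon genes rose and 3 fell, and 3 of 16 class I genes rose and 4 fell. Over all genes 10.8% rose and 10.2% fell in that fit. With all 6 libraries 1 of 29 genes of the interferon list rose, Ifi44, at 22.8, 24.3 and 24.7 against 9.33, 5.21 and 12.2 CPM, and of the class I list 1 of 16, the heavy chain H2-D1, at 1153, 784 and 827 against 419, 386 and 332 CPM. Ifi44 missed the threshold without mutant 1, mutant 3, wild type 2 or wild type 3 (adjusted p from 0.053 to 0.15), and H2-D1 missed the threshold without mutant 1, wild type 2 or wild type 3 (adjusted p from 0.11 to 0.19).

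**Figure D3:**
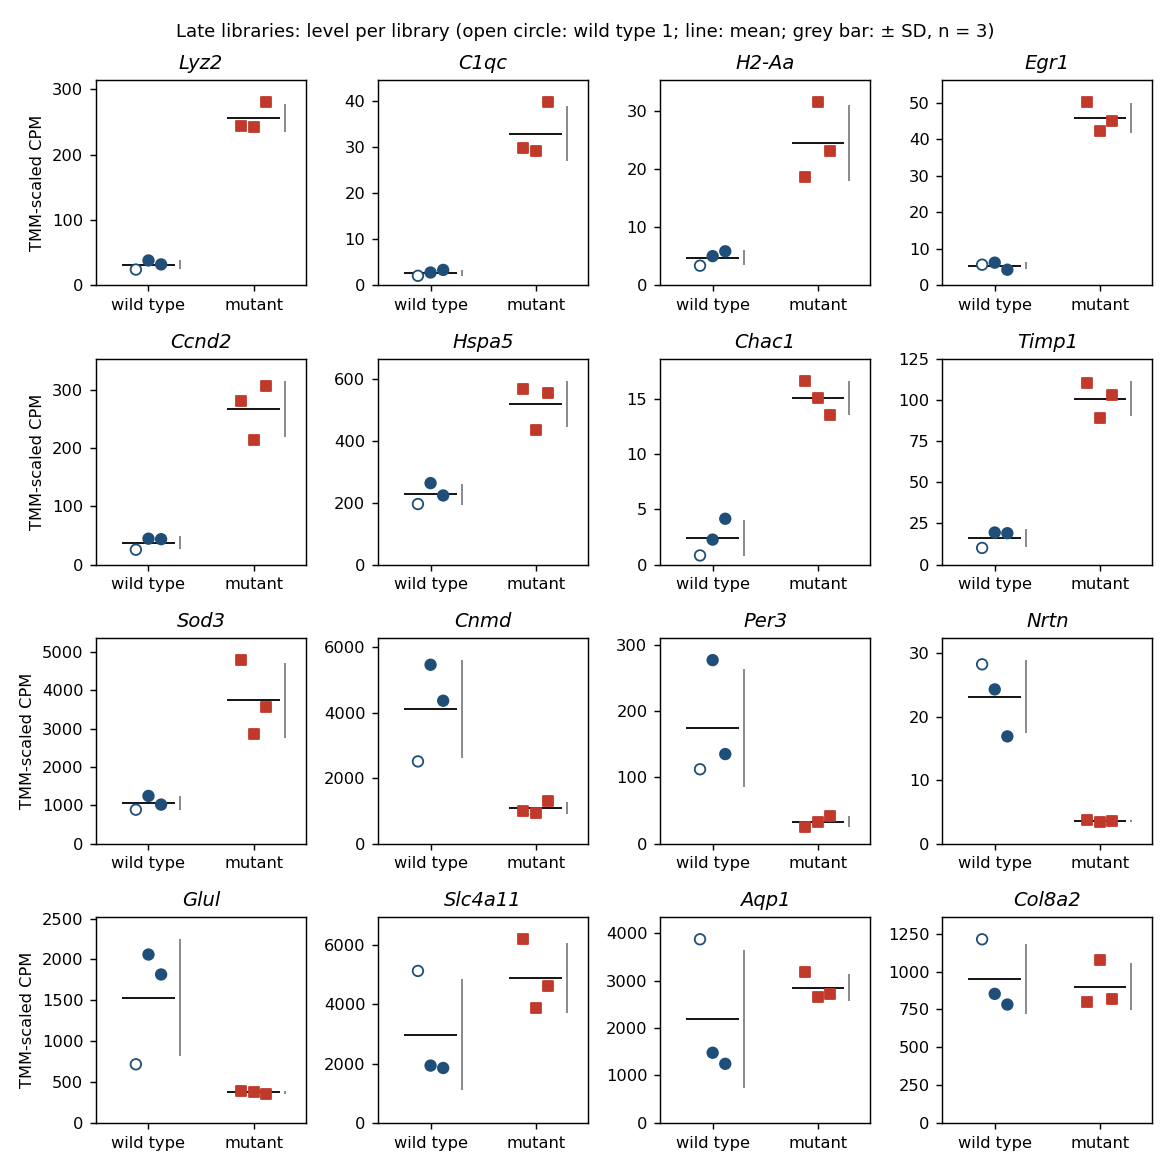
TMM-scaled CPM (vertical axes, each from 0) of 16 genes in the 3 late wild-type libraries (circles, wild type 1 open) and the 3 late mutant libraries (squares), with group mean and SD. The first 13 panels show no overlap between genotypes, whereas in Slc4a11 and Aqp1 wild type 1 lies within or above the mutant range, and Col8a2 overlaps.

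Immediate early genes, transcription factors and their targets that respond within minutes to growth factors, cytokines and stress, were higher in the mutants. Of 26 tested, 7 rose and none fell (median log2 fold change 1.58), 17 rose without wild type 1, and 5 to 8 rose without any other single library. Egr1, a zinc finger factor induced through ERK signalling, was at 50.3, 42.2 and 45.04 CPM in the mutants and 5.67, 6.23 and 4.30 CPM in the wild types, 8.49-fold higher (adjusted p = 5.3e-05). Jun was at 76.4, 49.6 and 66.8 against 19.9, 14.8 and 13.8 CPM and Junb at 30.7, 24.2 and 25.9 against 7.42, 4.14 and 4.46 CPM, so both, partners in the AP-1 factor, separated the genotypes without overlap. Fos, the other AP-1 partner, was at 18.2, 16.7 and 20.3 against 2.87, 5.94 and 8.28 CPM and missed the threshold without mutant 1, mutant 3 or wild type 2 (adjusted p from 0.052 to 0.092). Klf6 rose as well, and Ccn1, a matricellular protein, was at 2206, 1126 and 1789 against 469.8, 619.9 and 560.2 CPM. Ccn1 missed the threshold without mutant 1 or wild type 3 (adjusted p from 0.063 to 0.099). In Jund, wild type 1 (121, 10.3 and 10.6 CPM in wild types 1, 2 and 3) lay within the range of the mutants (172, 37.02 and 121 CPM), and its log2 fold change was 1.21 with and 3.52 without that library (adjusted p = 0.58 and 0.011). Of the genes that damp ERK signalling, Dusp6, a phosphatase of ERK, and Errfi1, an inhibitor of the EGF receptor, were the 2 of 18 that rose. Without wild type 1, 7 rose and 1 fell, and none rose without mutant 1, wild type 2 or wild type 3. Dusp6 was at 27.6, 15.99 and 17.4 against 7.52, 6.85 and 2.84 CPM and missed the threshold without mutant 1, wild type 2 or wild type 3 (adjusted p from 0.059 to 0.14). Errfi1 was at 70.6, 77.1 and 72.9 against 37.7, 34.2 and 28.4 CPM and missed the threshold without any 1 library other than wild type 1 (adjusted p from 0.088 to 0.17).

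Chaperones of the endoplasmic reticulum were among the genes that rose. Of 20 tested 5 rose, none fell and 18 had a log2 fold change above 0 (median 0.78), against 50.1% of all genes. Leaving out wild type 1, 12 rose and 1 fell, where 10.8% of all genes rose and 10.2% fell. None rose without mutant 1 or wild type 3, and 1 rose without wild type 2. Hspa5 (BiP), the chief chaperone of this compartment, was at 569, 435 and 556 CPM in the mutants and 196, 264 and 224 CPM in the wild types, 2.28-fold higher (log2 fold change 1.19 ± 0.31, adjusted p = 0.043). Each mutant library lay above each wild type, but Hspa5 missed the threshold without mutant 1, mutant 3, wild type 2 or wild type 3 (adjusted p from 0.098 to 0.19). Calr (calreticulin), which folds glycoproteins, was at 366, 276 and 300.0 against 131, 112 and 104 CPM (log2 fold change 1.44 ± 0.31, adjusted p = 0.016), and missed the threshold without mutant 1, wild type 2 or wild type 3 (adjusted p from 0.079 to 0.11). The other 3 that rose were the disulfide isomerases Pdia4 and Txndc5 and Dnajb9, a cofactor of Hspa5. Pdia4 missed the threshold without mutant 1, mutant 3, wild type 2 or wild type 3 (adjusted p from 0.057 to 0.16). Dnajb9 missed the threshold without mutant 1 or wild type 3 (adjusted p from 0.087 to 0.12), and Txndc5 missed the threshold without mutant 1, wild type 2 or wild type 3 (adjusted p from 0.17 to 0.18). Of the 16 genes of degradation from this compartment, Derl3, a channel component induced by the unfolded protein response, was at 5.47, 6.16 and 6.09 against 0.528, 0.615 and 0.355 CPM (11.7-fold, adjusted p = 0.0026). The list had 2 genes that rose, 6 without wild type 1 and 1 or 2 without any other single library. Derl3 passed under every setting, whereas Edem1, which marks glycoproteins for disposal, was at 30.02, 25.8 and 29.4 against 10.9, 13.6 and 9.42 CPM and missed the threshold without mutant 1, mutant 3, wild type 2 or wild type 3 (adjusted p from 0.068 to 0.13). Xbp1, Herpud1 and Sel1l did not pass in either fit.

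The promoters of 3 of these genes are shown because they hold the endoplasmic reticulum stress element, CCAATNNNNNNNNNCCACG, on either strand. The sequences are the 250 bases before the start of each gene in its sense direction, from RefSeq on build GRCm38.p6, with the element in capitals. Calr and Derl3 hold it on the strand opposite to the one printed. The windows lie at chr2:34771840-34772089 (plus strand, Hspa5), chr8:84846932-84847181 (minus strand, Calr) and chr10:75893148-75893397 (plus strand, Derl3).

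Hspa5: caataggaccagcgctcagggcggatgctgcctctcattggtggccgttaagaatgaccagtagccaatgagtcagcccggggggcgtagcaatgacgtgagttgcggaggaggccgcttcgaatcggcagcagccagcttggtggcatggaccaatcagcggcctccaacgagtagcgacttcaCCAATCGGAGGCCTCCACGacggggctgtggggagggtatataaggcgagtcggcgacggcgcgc
Calr: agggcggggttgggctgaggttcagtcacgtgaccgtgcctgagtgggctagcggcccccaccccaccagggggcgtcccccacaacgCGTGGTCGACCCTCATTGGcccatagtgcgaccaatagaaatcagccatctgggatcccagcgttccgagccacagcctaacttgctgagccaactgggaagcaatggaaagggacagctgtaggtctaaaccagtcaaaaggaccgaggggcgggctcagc
Derl3: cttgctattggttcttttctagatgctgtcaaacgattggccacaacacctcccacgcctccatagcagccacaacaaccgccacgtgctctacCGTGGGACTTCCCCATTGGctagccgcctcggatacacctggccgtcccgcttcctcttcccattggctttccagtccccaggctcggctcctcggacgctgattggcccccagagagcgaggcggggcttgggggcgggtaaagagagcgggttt

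A promoter was matched for 12589 of the 16257 tested genes, and 19 (0.151%) held the element. Among the chaperones 8 of 17 matched held it (Calr, Canx, Creld2, Dnajc3, Ero1b, Hsp90b1, Hspa5 and Pdia6), and among the degradation genes 2 of 13 (Derl3 and Syvn1). Of the 10 genes named here as holding it, Hspa5, Calr and Derl3 passed with all 6 libraries. Without wild type 1 Canx, Creld2, Hsp90b1 and Pdia6 were higher and Dnajc3 was lower past the threshold. The element was in 3 of 217 matched higher genes (1.38%) and in 0 of 149 matched lower genes. A match of letters is a description of the window, and binding at these promoters was not measured.

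Genes of the integrated stress response, which follow the factor Atf4 when translation is restrained, rose in 8 of 27 cases and fell in none. The median log2 fold change was 0.98, and 16 rose and 1 fell without wild type 1. Leaving out mutant 1, 2 rose, and leaving out wild type 3, 4 rose. The counts were 8, 7 and 6 without mutant 2, mutant 3 and wild type 2 respectively. Atf4 itself was at 95.6, 89.9 and 82.2 CPM in the mutants and 45.9, 34.6 and 30.5 CPM in the wild types (log2 fold change 1.27 ± 0.31, adjusted p = 0.035), and missed the threshold without mutant 1, mutant 3, wild type 2 or wild type 3 (adjusted p from 0.059 to 0.15). Chac1, a glutathione-degrading enzyme, was at 16.6, 15.02 and 13.6 against 0.824, 2.25 and 4.14 CPM, and Atf3, a factor induced by Atf4, at 10.4, 7.01 and 7.20 against 0.659, 0.820 and 0.710 CPM. Both separated the genotypes without overlap and passed under every setting. Asns, asparagine synthetase, was at 42.2, 25.7 and 32.7 against 9.76, 9.51 and 11.8 CPM, and Slc7a11, the cystine importer, at 7.76, 7.25 and 6.97 against 1.55, 1.19 and 1.498 CPM. Asns and Slc7a11 missed the threshold without mutant 1 (Asns, adjusted p = 0.07, and Slc7a11, adjusted p = 0.068). Ppp1r15a, which ends the translational block, Fgf21, a secreted stress hormone, and Cebpb, a C/EBP factor, were the other 3. Ppp1r15a missed the threshold without mutant 1 or wild type 3 (adjusted p from 0.075 to 0.11). Fgf21 missed the threshold without mutant 1 or wild type 3 (adjusted p from 0.063 to 0.12), and Cebpb missed the threshold without mutant 1, wild type 2 or wild type 3 (adjusted p from 0.063 to 0.078). Ddit3 (CHOP), the factor linked to cell death under this stress, was at 102, 90.8 and 97.7 against 37.9, 52.9 and 56.6 CPM without overlap, but did not pass (log2 fold change 0.98 ± 0.31, adjusted p = 0.088) unless wild type 1 was left out (0.95, adjusted p = 0.014). Of the 18 tRNA synthetases none passed, 16 lay above 0, and 9 rose without wild type 1.

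The promoter of Chac1 is shown as an example of the element read by Atf4 with C/EBP partners, here searched as TTGCATCA on either strand and set in capitals (chr2:119350992-119351241, plus strand, GRCm38.p6).

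Chac1: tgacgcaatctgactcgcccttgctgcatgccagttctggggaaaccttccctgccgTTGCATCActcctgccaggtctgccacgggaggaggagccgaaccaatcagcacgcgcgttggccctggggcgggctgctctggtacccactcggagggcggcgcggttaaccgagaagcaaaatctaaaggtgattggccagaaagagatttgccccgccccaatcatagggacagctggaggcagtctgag

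These letters were in 0.643% of the 12589 matched promoters and in 6 of 24 of the list (Atf3, Chac1, Fgf21, Nupr1, Slc7a11 and Vldlr). They were in 2.76% of the matched higher genes and in 1.34% of the lower genes. The AP-1 letters TGAGTCA were in 4.26% of all matched promoters, in 9.68% of the higher genes and in 3.36% of the lower genes.

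Matrix proteases and their inhibitors rose in 8 of 25 cases and fell in 1 (median log2 fold change 1.79). The number that rose was 13 without wild type 1, 4 without mutant 1 or wild type 2, 5 without wild type 3, and 7 and 8 without mutants 2 and 3. Mmp3, a metalloproteinase, was at 32.7, 13.1 and 16.3 CPM in the mutants and 1.35, 1.72 and 2.88 CPM in the wild types, and Plat, the tissue plasminogen activator, at 232, 114 and 153 against 20.3, 16.2 and 22 CPM. Timp1, an inhibitor of metalloproteinases, was at 110.3, 89.1 and 103 against 10.1, 19.5 and 19.1 CPM (6.22-fold, adjusted p = 3.1e-04). All 3 passed under every setting, and mutant 1 held the highest value of each. Mmp14, a membrane-bound metalloproteinase, was at 77.2, 55.3 and 66.2 against 29.6, 22.8 and 20.6 CPM and missed the threshold without mutant 1, wild type 2 or wild type 3 (adjusted p from 0.09 to 0.11). Mmp12 and Mmp13 were each below 2 CPM in every library. Mmp12, with 1 or 2 counts in each wild type, missed the threshold without any 1 library other than wild type 1 (adjusted p from 0.056 to 0.15), and Mmp13, without a count in any wild type, passed only with all 6 libraries or without mutant 2 or wild type 1. Adamts1, a protease of proteoglycans, fell, at 18.5, 21.6 and 20.03 against 96.5, 71.1 and 47.7 CPM (log2 fold change -1.84 ± 0.33, adjusted p = 0.0053). Of 33 interstitial matrix genes Ecm1, Tgfbi and Thbs2 rose, and of 28 basement membrane genes 3 rose, Col18a1 and Lamb1 among them, against 12 and 14 without wild type 1. Without any other single library 1 to 4 interstitial and 0 to 2 basement membrane genes rose. Tgfbi, whose product is deposited in several corneal dystrophies, was at 4.92, 8.91 and 7.92 against 1.22, 1.15 and 2.48 CPM and missed the threshold without mutant 1, mutant 2, mutant 3 or wild type 2 (adjusted p from 0.053 to 0.11). Thbs2 (thrombospondin 2) was at 25.1, 14.99 and 17.7 against 5.70, 6.52 and 6.23 CPM and missed the threshold without mutant 1, wild type 2 or wild type 3 (adjusted p from 0.061 to 0.13). Lamb1, a laminin chain, was at 13.99, 15.8 and 12.9 against 4.58, 5.58 and 4.22 CPM and missed the threshold without any 1 library other than wild type 1 (adjusted p from 0.062 to 0.11). Col18a1 missed the threshold without mutant 2, mutant 3, wild type 2 or wild type 3 (adjusted p from 0.056 to 0.15). Fn1 (fibronectin) was at 443, 581 and 444 against 276, 236 and 229 CPM, with no overlap but an adjusted p of 0.082, and 0.0091 without wild type 1. Of 22 enzymes that fold and modify collagen, Lox, which crosslinks collagen, and Fkbp14, a prolyl isomerase, rose and 21 lay above 0, and 14 rose and 1 fell without wild type 1. Lox and Fkbp14 missed the threshold without mutant 1, mutant 3, wild type 2 or wild type 3 (Lox, adjusted p from 0.078 to 0.17, and Fkbp14, adjusted p from 0.055 to 0.16).

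Cyclins of the G1 phase and an inhibitor of division rose side by side. Ccnd2 (cyclin D2) was at 281, 214 and 307 CPM in the mutants and 25.5, 44.4 and 43.6 CPM in the wild types, and Ccnd1 (cyclin D1) at 13.1, 8.82 and 13.1 against 0.429, 0.820 and 0.631 CPM. Cdkn1a (p21), which arrests the cycle after p53 activation, was at 88.8, 68.9 and 78.4 against 10.6, 16.3 and 24.4 CPM (4.61-fold, adjusted p = 0.0018). These 3 genes passed under every setting and had their lowest value in wild type 1. Cdkn1c (p57), another inhibitor, fell, at 137, 108 and 181 against 244, 695 and 582 CPM and missed the threshold without mutant 1, wild type 2 or wild type 3 (adjusted p from 0.066 to 0.08). Of 32 tested genes of DNA replication and mitosis 6 rose, all at low levels, against 10 higher and 2 lower without wild type 1. Rrm2, a subunit of ribonucleotide reductase, had 85 to 116 counts in each mutant library and none in any wild type, at least 29.6-fold higher with the floor of 3 counts per library. Cdk1, the mitotic kinase, was at 4.19, 4.62 and 4.78 against 0, 0 and 0.197 CPM, and Top2a, Ccnb1, Ccnb2 and Ube2c were each below 5 CPM in every library. Top2a missed the threshold without mutant 1 or wild type 3 (adjusted p from 0.074 to 0.12). Mki67, Pcna and the 6 Mcm genes did not pass with 6 libraries. Of 27 p53 targets and senescence genes Cdkn1a, Phlda3, Eda2r, Plk3 and Igfbp3 rose and Ei24 fell, and 2 to 5 rose and none fell without any 1 library other than wild type 1. Phlda3, an Akt inhibitor induced by p53, was at 60.2, 40.8 and 51.2 against 13.4, 22.96 and 24.1 CPM (adjusted p = 0.037). Phlda3 missed the threshold without mutant 1, mutant 3, wild type 2 or wild type 3 (adjusted p from 0.061 to 0.17). Plk3 and Igfbp3 missed the threshold without any 1 library other than wild type 1 (Plk3, adjusted p from 0.055 to 0.25, and Igfbp3, adjusted p from 0.087 to 0.21). Ei24, at 22.9, 23.2 and 36.8 against 53.4, 96.8 and 57.2 CPM, missed the threshold without any 1 library other than wild type 1 (adjusted p from 0.064 to 0.2).

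The highest fold changes among genes of at least 5 CPM and no overlap were led by genes of varied function. Ctla2a, a cysteine protease inhibitor, was at 20.3, 14.7 and 17.4 CPM in the mutants and 0.330, 0.656 and 0.552 CPM in the wild types, and Elobl, related to elongin B, at 24.4, 18.5 and 23.7 against 0.363, 0.656 and 0.710 CPM. Fxyd5, a regulator of the sodium pump, was at 40.5, 32.9 and 35.4 against 1.95, 2.09 and 2.17 CPM (17.5-fold, adjusted p = 3.8e-06). These 3 had the smallest adjusted p of the comparison and passed under every setting. Cgref1 was at 9.35, 8.64 and 8.48 against 0.594, 0.615 and 0.276 CPM, and Plaur, the urokinase receptor, at 10.04, 6.83 and 7.63 against 0.495, 1.11 and 0.670 CPM. Bpifa2 was at 5.47, 5.92 and 4.62 CPM in the mutants and was counted in wild type 1 alone among the wild types (0.264, 0 and 0 CPM).

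The largest rises in absolute level included several secreted proteins. Sod3, the extracellular superoxide dismutase, was at 4793, 2861 and 3574 CPM in the mutants and 888, 1248 and 1022 CPM in the wild types (3.56-fold, adjusted p = 0.0038). Apod, a lipid-binding apolipoprotein, was at 2946, 2695 and 2722 against 1013, 1112 and 1145 CPM, with a narrow spread in both groups. Gpha2, a glycoprotein hormone subunit, was at 2978, 2222 and 2158 against 852, 906 and 1005 CPM, and Angptl7, a secreted protein of the anterior eye, at 1019, 593 and 838 against 102, 235 and 206 CPM. Sod3 and Angptl7 passed under every setting, whereas Apod and Gpha2 missed the threshold without mutant 1, wild type 2 or wild type 3 (Apod, adjusted p from 0.07 to 0.11, and Gpha2, adjusted p from 0.065 to 0.13). The lysosomal protease Ctsd was at 1362, 992 and 1068 against 687, 385 and 379 CPM and missed the threshold without mutant 1, mutant 3, wild type 2 or wild type 3 (adjusted p from 0.06 to 0.22). Ctsl, another, was at 1580, 1027 and 1083 against 602, 551 and 504 CPM and missed the threshold without mutant 1, mutant 3, wild type 2 or wild type 3 (adjusted p from 0.069 to 0.26). Timp2, a further inhibitor of metalloproteinases, was at 1409, 698 and 964 against 389.8, 339 and 373 CPM and missed the threshold without mutant 1, wild type 2 or wild type 3 (adjusted p from 0.084 to 0.17). Of 36 lysosomal genes 6 rose (Ctsc, Ctsd, Ctsl, Gpnmb and, on the myeloid list too, Ctss and Cd68) and none fell, and 22 rose and 1 fell without wild type 1. The number that rose was 4 without mutant 1, mutant 3, wild type 2 or wild type 3. Hmox1, the heme-degrading enzyme induced by oxidative stress, was at 32.7, 32.9 and 29.3 against 7.39, 6.93 and 5.72 CPM (4.73-fold, adjusted p = 7.6e-04), and Gpx3, a secreted peroxidase, at 65.9, 99.8 and 162 against 26.6, 4.75 and 14.98 CPM. Gpx3 missed the threshold without mutant 2 or wild type 3 (adjusted p from 0.055 to 0.071). Srxn1 was at 34.94, 28.8 and 39.15 against 14.84, 14.39 and 13.96 CPM (log2 fold change 1.25, adjusted p = 0.035). It missed the threshold without mutant 1, mutant 3, wild type 2 or wild type 3 (adjusted p from 0.12 to 0.17). Of 34 antioxidant enzyme genes 4 rose (Sod3, Hmox1, Gpx3 and Srxn1) and 1 fell. Without wild type 1, 8 rose and 9 fell. Nqo1, a target of the antioxidant factor NRF2, was at 51.6, 30.9 and 39.8 against 31.8, 34.5 and 24.4 CPM and did not pass (adjusted p = 0.43). NRF2 targets were not tested as a set.

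No list held more than 2 genes that fell, so the genes that fell are described one by one. Cnmd (chondromodulin), an anti-angiogenic glycoprotein, was at 1013, 944 and 1308 CPM in the mutants and 2510, 5457 and 4360 CPM in the wild types (log2 fold change -1.92 ± 0.34, adjusted p = 0.0044). Glul, glutamine synthetase, was at 391, 381 and 351 against 717, 2060 and 1816 CPM. In both, wild type 1 was the lowest wild type yet lay above every mutant, and both passed under every setting. Nrtn (neurturin), a ligand of the GDNF family, was at 3.67, 3.38 and 3.57 against 28.3, 24.3 and 16.9 CPM (6.54-fold lower, adjusted p = 3.4e-04), and here wild type 1 was the highest. Pdcd4, a repressor of translation, was at 38.9, 29.3 and 38.5 against 133, 249 and 130.3 CPM. The other lower genes that passed under every setting include Kynu, Slc26a7, Ptchd1, Gnmt, Adamts1, Arhgap44 and Bex1, which fall outside the rule for named genes and were chosen after their values were seen. Kynu, kynureninase of tryptophan breakdown, was at 10.6, 8.88 and 13.9 against 43.99, 43.5 and 50.1 CPM, and Slc26a7, an anion exchanger, at 10.4, 9.49 and 11.8 against 33.7, 40.1 and 38 CPM. Ptchd1 was at 12.4, 10.7 and 16.8 against 65.3, 59.4 and 54.1 CPM, Gnmt, glycine N-methyltransferase, at 24.4, 25.7 and 22.9 against 65.2, 102 and 97.7 CPM, and Adamts1 is given above. In these 7 genes no wild-type library fell below 2 times the mutant maximum. In Zfp691, Sfxn5, Amt, Lgr4, Rdh13 and Ube2s wild type 1 was the lowest wild type and lay nearer to the mutants than to the other two. Sfxn5, a mitochondrial carrier, was at 10.6, 11.6 and 11.1 CPM in the mutants and at 18.3, 89.2 and 73.9 CPM in wild types 1, 2 and 3, and Sfxn5 and Zfp691 passed under every setting. Amt, of glycine cleavage, missed the threshold without mutant 1 or wild type 2 (adjusted p from 0.054 to 0.057). Lgr4, a receptor of R-spondins, missed the threshold without wild type 2 (adjusted p = 0.054). Rdh13, a retinol dehydrogenase, missed the threshold without mutant 1, wild type 2 or wild type 3 (adjusted p from 0.066 to 0.11), and Ube2s, a ubiquitin-conjugating enzyme, missed the threshold without mutant 1, wild type 2 or wild type 3 (adjusted p from 0.07 to 0.08). Gstm1, a glutathione transferase, was among the 8 largest falls in level, at 951, 790.5 and 909.7 against 1546, 2284 and 2272 CPM, and missed the threshold without any 1 library other than wild type 1 (adjusted p from 0.14 to 0.19).

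Clock genes did not move as 1 group, with 1 of 23 higher and 2 lower. Without wild type 1, 3 of 23 were higher and 5 lower, where 10.8% of all genes were higher and 10.2% lower. The counts were 0 or 1 higher and 1 to 3 lower without any other single library. Per3, a repressor of the clock, was at 24.7, 33.5 and 42.5 CPM in the mutants and 112, 277 and 135 CPM in the wild types (5.21-fold lower, adjusted p = 0.0018), and passed under every setting. Dbp, a D-box activator and a classical output of the clock, was at 15.8, 15.5 and 34.5 against 65.3, 123 and 71.9 CPM, and Nfil3, a repressor at the same element, was higher, at 9.45, 6.01 and 8.09 against 1.32, 2.50 and 2.76 CPM. Dbp missed the threshold without mutant 1 or wild type 2 (adjusted p from 0.054 to 0.07), and Nfil3 missed the threshold without mutant 1, mutant 3, wild type 2 or wild type 3 (adjusted p from 0.08 to 0.19). Per1, Per2, Nr1d1, Bmal1 and Clock did not pass. The labels give no time of day for tissue collection. The Per3 promoter is shown because it holds the D-box letters TTATGTAA 2 times, set in capitals (chr4:151044666-151044915, minus strand, GRCm38.p6), and among the 18 clock genes matched it alone held them.

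Per3: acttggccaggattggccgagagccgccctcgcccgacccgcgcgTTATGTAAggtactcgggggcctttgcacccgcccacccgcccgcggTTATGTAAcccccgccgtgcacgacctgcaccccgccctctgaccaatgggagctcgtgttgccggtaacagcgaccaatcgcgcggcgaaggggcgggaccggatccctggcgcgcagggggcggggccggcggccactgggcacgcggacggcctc

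These letters were in 0.635% of all matched promoters, in 1.34% of those of lower genes and in 1.38% of those of higher genes.

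Transport genes of the endothelial pump depended on which wild types were compared. Slc4a11, the transporter mutated in a corneal endothelial dystrophy, was at 6198, 3879 and 4626 CPM in the mutants and at 5130, 1935 and 1854 CPM in the wild types. Wild type 1 lay inside the mutant range and wild types 2 and 3 below it, so the log2 fold change was 0.72 ± 0.38 (adjusted p = 0.27) with and 1.499 (adjusted p = 0.0087) without wild type 1. Aqp1, the water channel, was at 3186, 2654 and 2716 against 3871, 1479 and 1246 CPM, with wild type 1 the highest of the 6. Its log2 fold change was 0.38 with and 1.19 without that library (adjusted p = 0.58 and 0.0083). Col8a1, the partner chain of Col8a2, also had wild type 1 as the highest wild type. Col8a1 was at 1400, 1282 and 1285 against 1365, 720.0 and 698 CPM (adjusted p = 0.36 with and 0.0091 without wild type 1). Atp1b1, the beta chain of the sodium pump, was at 772, 768 and 704 against 999, 1882 and 1538 CPM, lower in each mutant than in each wild type but past the threshold only without wild type 1 (log2 fold changes -0.98 and -1.07, adjusted p = 0.097 and 0.0087). Car12, a membrane carbonic anhydrase, and Slc16a1, a lactate carrier, were the 2 of 18 bicarbonate and water transport genes that passed with 6 libraries, against 7 higher and 1 lower without wild type 1 and 0 to 2 higher without any other single library. Car12 was at 10.6, 8.16 and 11.3 against 4.02, 2.25 and 2.33 CPM and missed the threshold without mutant 1, mutant 3, wild type 2 or wild type 3 (adjusted p from 0.11 to 0.13). Slc16a1 was at 33, 18.9 and 17.1 against 10.8, 8.85 and 7.53 CPM and missed the threshold without mutant 1, wild type 2 or wild type 3 (adjusted p from 0.14 to 0.27). Among channels, Ano1, a calcium-activated chloride channel, was at 4.26, 4.71 and 4.91 against 0.264, 0.328 and 0.315 CPM, and Abcc8, the sulfonylurea receptor, at 0.450, 1.27 and 1.67 against 7.02, 4.67 and 8.36 CPM. Abcc8 missed the threshold without mutant 1 or wild type 3 (adjusted p from 0.093 to 0.11).

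Of 48 nuclear genes of the respiratory chain none passed with 6 libraries, and 7 had a log2 fold change above 0 (median -0.64). Leaving out wild type 1, 32 fell and 3 rose. Ndufb8, a complex I subunit, was at 617, 477 and 622 CPM in the mutants and at 552, 1317 and 1265 CPM in the wild types, and Sdhb, of complex II, at 372, 310.0 and 381 against 353, 848 and 814 CPM, so wild type 1 lay inside the mutant range in both, which were chosen after their values were seen. Of the 13 mitochondrial messenger RNAs none passed with 6 libraries and 1 lay above 0 (median -0.69). ND4 was at 1779, 2090 and 2233 against 3585, 2926 and 2585 CPM, and ND1 at 3231, 3102 and 4046 against 4924, 5247 and 4386 CPM, both chosen after their values were seen, and in both every wild type, wild type 1 included, lay above every mutant. The same held for 7 of the 13 mitochondrial genes and for 9 of the 48 nuclear genes, against 11.6% of all genes tested. The picked genes thus do not stand for all members of their lists. Neither proteasome nor cytosolic ribosomal protein genes passed with 6 libraries (0 of 31 and 0 of 53), and 14 proteasome genes fell and 5 rose without wild type 1.

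**Figure D4:**
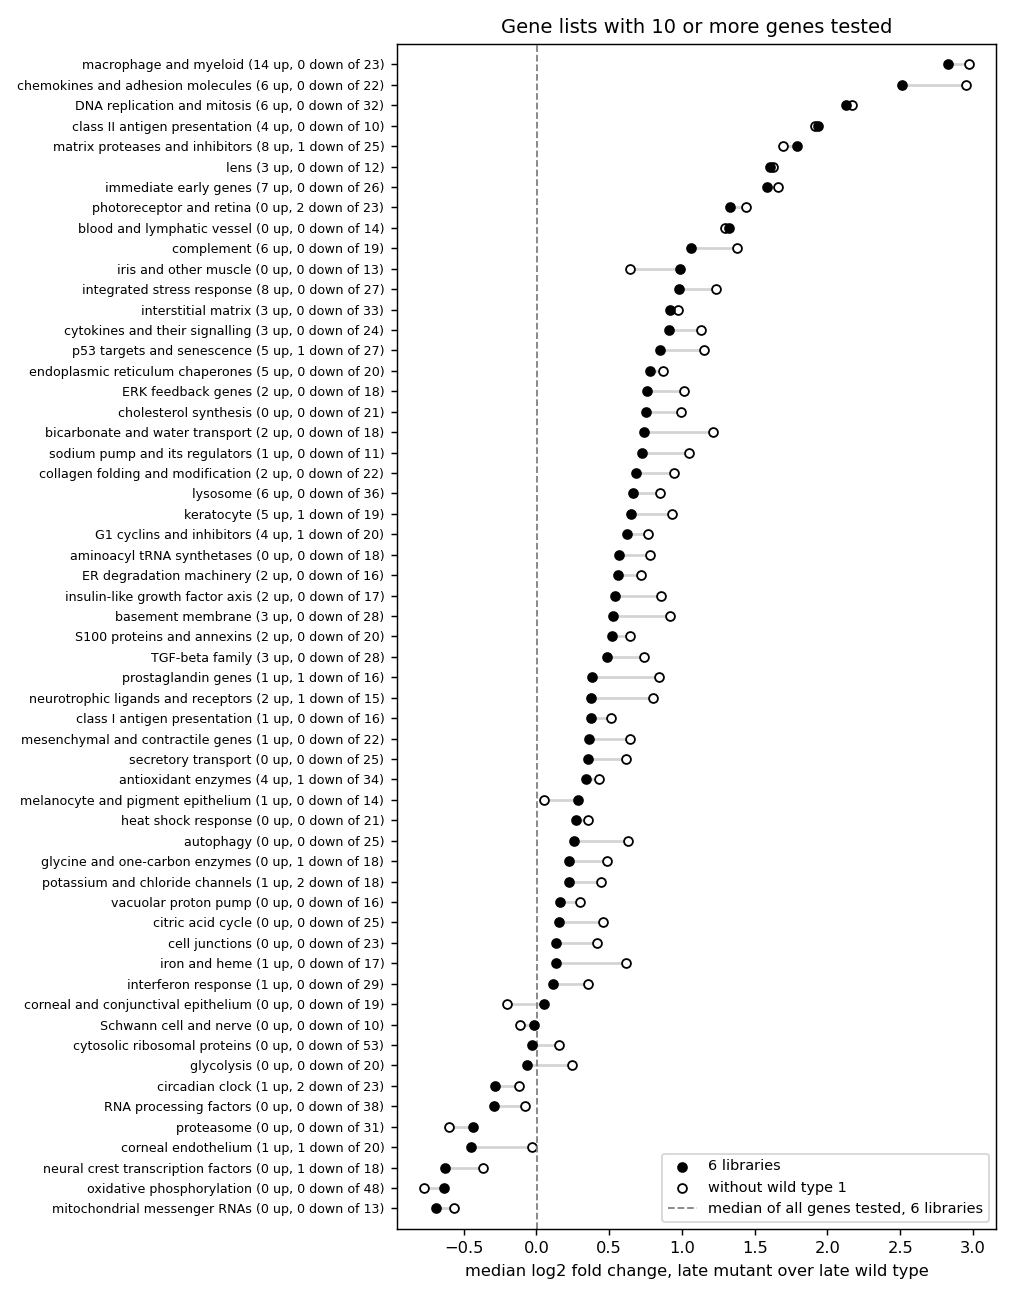
Median log2 fold change, late mutant over late wild type, of each gene list with 10 or more tested genes, with 6 libraries (filled) and without wild type 1 (open); the labels give how many genes passed higher or lower. The myeloid list has the highest median (2.83), and respiratory chain and mitochondrial messenger lists the lowest (-0.64 and -0.69).

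The dissected tissue was checked against markers of the endothelium and of neighbouring tissues. Endothelial markers differed widely in level. Car3 was at 58680, 31510 and 61330 CPM in the mutants and 67360, 96020 and 77130 CPM in the wild types, without passing (adjusted p = 0.23). Over the 6 libraries Slc4a11 ran from 1854 to 6198 CPM, Tjp1 from 37.6 to 94.7 CPM and Slc16a1 from 7.53 to 33 CPM. Of 20 endothelial markers Slc16a1 rose and Ptgds, prostaglandin D synthase, fell (median log2 fold change -0.45), and the list summed to 43730 to 73960 against 83430 to 107100 CPM, mostly Car3. Leaving out wild type 1, 6 rose and 3 fell (median -0.03), whereas none rose without mutant 1, wild type 2 or wild type 3. Ptgds, at 71.2, 176 and 122 against 216, 373 and 366 CPM, missed the threshold without mutant 1, mutant 3, wild type 2 or wild type 3 (adjusted p from 0.13 to 0.24). Keratocyte genes, those of stromal cells next to Descemet membrane, rose in 5 of 19 cases, and Ptgds, which is on this list too, fell. Leaving out wild type 1, 9 rose and 1 fell, and 4 or 5 rose without any other single library. Kera (keratocan) was at 90.5, 49.8 and 66.05 against 17.6, 11.4 and 11.6 CPM, and Lum (lumican) at 342, 140.0 and 225 against 43.1, 72.3 and 44.5 CPM, with Prelp, Angptl7 and Cd34 the other 3. Prelp missed the threshold without mutant 1, mutant 3, wild type 2 or wild type 3 (adjusted p from 0.069 to 0.23). The summed keratocyte level, to which abundant shared genes contribute, was 23270 to 34330 CPM in the mutants and 22230 to 28120 CPM in the wild types. Mgp, Chil1 and Angptl7 of the trabecular meshwork list rose (3 of 8), with sums of 1897 to 2905 against 834 to 1501 CPM, and Myoc did not pass. Mgp, an inhibitor of calcification, was at 162, 166 and 160.3 against 26.4, 41.4 and 32.2 CPM and Chil1, a chitinase-like protein of macrophages and stroma, at 115, 124 and 200.2 against 14.97, 25.8 and 21.4 CPM. Lens crystallins rose in 3 of 12 cases, and in 1 to 5 with a single library left out: Cryaa was at 98.3, 144 and 138 against 27.4, 34.2 and 33.4 CPM, with list sums of 259 to 415 against 104 to 189 CPM and Crygd, Cryge and Birc7 at 0 in all 6 libraries. Of the other 2, Cryba1 missed the threshold without wild type 3 (adjusted p = 0.066), and Cryba2 missed the threshold without mutant 1, mutant 2 or wild type 3 (adjusted p from 0.067 to 0.14). Summed levels of epithelial genes (99.3 to 309 against 57.3 to 514 CPM), vessel genes (73.4 to 107 against 59.4 to 152 CPM), erythroid genes (13.8 to 34.1 against 8.65 to 19.95 CPM) and Schwann cell genes (153 to 248 against 223 to 277 CPM) overlapped between the genotypes, and none of their 19, 14, 5 and 10 tested members passed with 6 libraries. Yet 13 of the 14 vessel genes lay above 0 (median log2 fold change 1.32), and 2 of 15 rose and 1 fell without wild type 1. Of the epithelial genes 1 rose without mutant 2 or wild type 1, and 3 rose without wild type 3. Photoreceptor and retina genes summed to 562 to 806 against 918 to 2337 CPM, with Glul and Nr2e3 lower, while 20 of the 23 lay above 0 and the median was 1.33, so sum and median differ in sign. Glul alone was at 391, 381 and 351 against 717, 2060 and 1816 CPM. Nr2e3, a nuclear receptor, was at 35.2, 38.2 and 42.3 against 97.3, 123 and 108 CPM and missed the threshold without mutant 1, mutant 3 or wild type 2 (adjusted p from 0.056 to 0.1). Summed levels of ciliary body epithelium genes (22.5 to 23.5 against 7.65 to 14.6 CPM) and mast cell genes (10.7 to 14.9 against 5.84 to 8.20 CPM) also did not overlap between the genotypes. None of their 7 and 2 tested members passed, Wfdc1 and Hdc made up most of the sums, and the mast cell markers Fcer1a and Ms4a2 were at 0 in all 6 libraries. Where such marker levels moved with the genotype, their part in the other differences was not tested.

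A panel of 21 genes of corneal endothelial disease and stress had 4 members that rose and none that fell, and 12 and 1 without wild type 1. Tcf4, whose repeat expansion is the main human risk locus of Fuchs dystrophy, was at 482, 448 and 443 CPM in the mutants and 519, 502 and 492 CPM in the wild types (log2 fold change -0.14 ± 0.29, adjusted p = 0.8, and 0.008 without wild type 1, adjusted p = 0.98). Zeb1, a factor of mesenchymal transition, was at 15.9, 31.4 and 23.8 against 33.1, 26.6 and 30.9 CPM. Clu (clusterin), a chaperone found in guttae, was at 10060, 6797 and 8391 against 4844, 4967 and 3767 CPM without overlap. Its log2 fold change was 0.89 with and 1.07 without wild type 1 (adjusted p = 0.11 and 0.018). Tjp1 and Cdh2, of tight and adherens junctions, were at 37.6, 47.4 and 38.1 against 94.7, 63.8 and 68.2 CPM and at 42.1, 46.8 and 43.01 against 101, 53.3 and 49.3 CPM, both lower in each mutant than in each wild type but not past the threshold (adjusted p = 0.12 and 0.27). For Cdh2 the log2 fold change was -0.63 with and -0.10 without wild type 1, and for Tjp1 -0.88 and -0.56 (adjusted p = 0.077 without it). S100a4, a calcium-binding protein of motile and inflammatory cells, was at 53.2, 43.3 and 43.4 against 11.3, 13.5 and 11.8 CPM and passed under every setting.

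The early comparison, from other libraries of another batch, is set beside the late one in a fit of all 12 libraries. Of 124 named genes that passed late, 43 also passed early (adjusted p below 0.05), all 43 in the same direction and all higher, and none of the 25 lower genes passed early. Over all genes tested in that fit 0.59% passed early, 0.557% higher and 0.0334% lower. The named genes were chosen by their late values, so nothing is read from these counts. Ctla2a, C1qc and Egr1 had early log2 fold changes of 5.74 ± 0.50, 3.66 ± 0.47 and 3.40 ± 0.43. For Glul and Nrtn the early log2 fold changes were 0.49 ± 0.40 and 0.41 ± 0.41, with adjusted p of 0.68 and 0.72. The test of the difference itself, late minus early, called 1 of 17965 genes (0.00557%) with edgeR's quasi-likelihood test, and 2013 had an unadjusted p below 0.05. That gene was Isoc1, of the isochorismatase domain family, for which, as for every late-minus-early difference here, batch, age and stage cannot be told apart. Of the genes named above, Nrtn, Glul and Csf1r did not pass this test (differences of -3.12 ± 0.60, -2.51 ± 0.58 and 2.14 ± 0.64, adjusted p = 0.094, 0.12 and 0.19), nor did the crystallin Cryba1 (3.33 ± 0.66, adjusted p = 0.094), so these differences are not shown to differ between the stages.

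**Figure D5:**
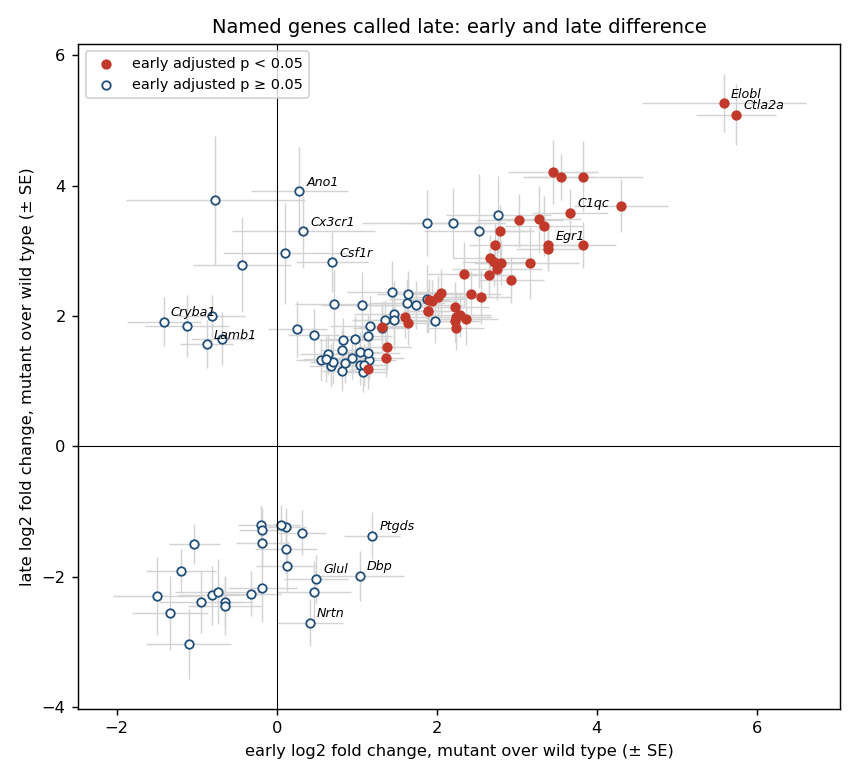
Early (horizontal) and late (vertical) log2 fold change, mutant over wild type, with SE bars, for the 116 named genes that passed late and whose late wild-type mean lay above the floor of 3 counts per library. Filled points (43 genes in all) also passed early and all lie in the upper right, whereas none of the genes that fell late passed early.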

How the data were processed

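Corneal endothelium of late Col8a2 Q455K mutants and wild types was sequenced in 3 libraries per genotype (27723176 to 29972262 counts each). Read counts for each gene symbol, as deposited by the authors, were made with tools that, per the submitters' processing notes, include fastp, HISAT2, HTSeq, DESeq2 and build GRCm39, in no stated order or version. The authors' deposited FPKM values, scaled to gene length and library size, served only to derive the length each gene was given. The authors' deposited table of the late comparison holds log2 fold changes of mutant over wild type, which its header ties to DESeq2. The same deposited table holds a p-value and a q-value per gene, also the authors' own.

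Genes with too few counts (16504 of 32761) were removed by filterByExpr, and 16257 were tested with edgeR 4.0.16 in R 4.3.3 (TMM scaling, robust quasi-likelihood F test, 4 residual degrees of freedom, Benjamini-Hochberg adjustment, threshold 0.05). The common biological coefficient of variation was 0.485. Late minus early differences, and the early values beside the late ones, came from 1 fit of all 12 libraries. DESeq2 1.42.0 and limma 3.58.1 served as alternatives, beside other filters and scalings, protein-coding genes alone, a replicate block and the omission of each library. In simulated counts the late test recovered 6 of 100 genes at a 2-fold change, 73 of 100 at a 4-fold change and made 6 false calls among 16257 genes. Named genes are those called with no overlap, a group mean of at least 5 CPM and a plain symbol that had the 12 highest and 12 lowest log2 fold changes or the 8 largest rises and 8 largest falls in level. To these were added up to 4 called members of each list with the smallest p, a panel, and the 6 highest and 6 lowest ratios of wild type 1 to wild types 2 and 3 (pseudocount 1 CPM, at least 20 CPM). The libraries to compare, the lists and the panel were chosen with earlier results of these data known. Promoters are RefSeq windows of GRCm38.p6, a build other than that of the counts, and were matched by gene. Antisense and overlapping genes are not described, since the strand setting of the counting is unknown here. A few genes and 1 sequence are not reported here.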

Additional observations from a re-analysis of the deposited data

Results flagged for a closer look

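The difference between the late and the early genotype effect passed its own test in 1 gene. Isoc1 was higher in early mutants (140.6, 286 and 283 CPM) than in early wild types (89.4, 77.7 and 82.8 CPM), a log2 fold change of 1.51. In the late stage it was lower in the mutants (77.0, 63.8 and 74.8 CPM) than in the wild types (118, 333 and 314 CPM), a log2 fold change of -1.83 in the same fit. The libraries of the genotypes did not overlap at either stage, and late minus early came to -3.33 ± 0.49 (SE, adjusted p = 0.030 with edgeR's quasi-likelihood test). Late wild type 1 was the lowest late wild type in this gene. The call was lost in each fit that left out 1 library other than early mutant 1, early wild type 1 or late wild type 1.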

How the results depend on the processing

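None of the 489 genes changed sign under any of the 14 alternatives. Each differed at least 2-fold and 479 showed no overlap between genotypes, so a change of sign was unlikely from the start. The share of calls that were higher did move, from 37.8% with limma-voom and sample weights to 78.2% without mutant 1, against 58.3% with 6 libraries. The total, higher and lower counts were 904, 452 and 452 without the filter, 1417, 724 and 693 with DESeq2's Wald test, 3515, 1330 and 2185 with limma-voom and sample weights, and 983, 497 and 486 with all 12 libraries in 1 fit. Leaving out 1 library gave 142 (without mutant 1) to 3644 (without wild type 1) calls, 111 to 1870 higher and 31 to 1774 lower. The other scalings and filters gave counts within 1.5 times the main one. Late minus early called 297 genes without the filter, 2 with the replicate block, and 0 to 199 with 1 library left out, the highest without late wild type 1. Without early wild type 1 it called 28 and without early mutant 1 it called 1. The deviations of same-numbered mutants and wild types had correlations of -0.009, -0.051 and 0.082, and 1 of 3 mutants correlated best with its own number. With 3 libraries per group this check cannot decide whether the numbers pair the libraries. The replicate block gave 624 calls, 363 higher and 261 lower. Over named genes and settings, 1796 values kept direction and side of the threshold, 257 lost the call, 44 gained it and 27 changed sign, in 9 genes that were not called with 6 libraries. With 1 library left out the log2 fold change ran from -0.20 to 0.26 in Col8a2, -0.51 to 1.04 in Gpm6a, -1.85 to 1.82 in Krt15, -0.47 to 1.04 in Penk, -1.34 to 0.83 in Sfi1, -0.44 to 0.0297 in Slc4a4, -0.21 to 1.496 in Taf10, -0.18 to 0.0078 in Tcf4 and -0.90 to 0.90 in Tspan12. Of the 27 only Gpm6a without wild type 1 passed the threshold. With limma-voom and sample weights Col8a2 was at 0.0205, Gpm6a at 0.73, Penk at 0.0803, Sfi1 at 0.19 and Tspan12 at 0.58, with the replicate block Gpm6a was at 0.14, Krt15 at 0.0711 and Penk at 0.89, and with the filter of 5 CPM Penk was at 0.0678. In 4 classes of gene length, from short to long, the median log2 fold change was -0.28, 0.22, 0.12 and -0.13, and the log2 ratio of wild type 1 to the other wild types -0.44, 0.07, 0.23 and 0.25. In the same order the classes held 104, 99, 59 and 23 higher and 50, 36, 48 and 70 lower calls, so calls among the longest genes were mostly lower. The part of length in the results was not tested. All 450 called genes present in the authors' deposited table had q below 0.05 there in the same direction. With the spread of these 6 libraries, 2-fold changes were mostly below what the test could call, at 6 of 100 recovered in simulated counts. Without wild type 1 some smaller changes passed, such as that of Hsp90b1 (log2 fold change 0.62, adjusted p = 0.032 with edgeR).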

Other observations

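Several further lists held a few genes that rose. Ptgs2 (cyclooxygenase-2), the inducible enzyme of prostaglandin synthesis, was at 28.1, 17.04 and 22.6 CPM in the mutants and 7.29, 5.82 and 5.05 CPM in the wild types (3.73-fold, adjusted p = 0.0057 with edgeR), and missed the threshold without mutant 1 (adjusted p = 0.053). Igfbp6, a binding protein that prefers IGF-II, was at 21.1, 26.3 and 38.2 against 3.99, 9.67 and 7.96 CPM and passed under every setting. Of 28 genes of the TGF-beta family the ligand Tgfb3, the signalling repressor Skil and the BMP antagonist Nog rose, and 7 rose and 1 fell without wild type 1. Tgfb3 was at 29.5, 20.4 and 21.2 against 11.2, 8.77 and 9.94 CPM and missed the threshold without any 1 library other than wild type 1 (adjusted p from 0.051 to 0.23). Skil and Nog missed the threshold without mutant 1, wild type 2 or wild type 3 (Skil, adjusted p from 0.11 to 0.26, and Nog, adjusted p from 0.12 to 0.17). Of 21 cholesterol synthesis genes none passed and 18 had a log2 fold change above 0 (median 0.75), whereas 7 rose and 2 fell without wild type 1.

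Genes in which late wild type 1 was most unlike late wild types 2 and 3 were picked by that ratio, so their values are a description. Tle5, a Groucho-family corepressor, was at 74.4, 21.3 and 13.8 CPM in wild types 1, 2 and 3 and at 78.05, 42.1 and 55.4 CPM in the mutants. Tspan12, a tetraspanin of norrin signalling, was at 85.2, 11.3 and 22.7 CPM in the wild types and 39.8, 8.61 and 38.9 CPM in the mutants. Among those lowest in wild type 1, Penk, the enkephalin precursor, was at 2.18, 45.9 and 102 CPM in the wild types and 43.9, 51.5 and 51.5 CPM in the mutants, and Krt15, an epithelial keratin, at 6.92, 13.6 and 228 against 9.28, 66.7 and 32.7 CPM. Rab5a, of early endosomes, was at 6.66, 108 and 99.3 CPM in the wild types and 36.9, 16.3 and 25.1 CPM in the mutants.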
